A study of Mus musculus with 6 samples.

Results

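The colony-stimulating factors and their receptors were examined in bone marrow (BM) MSCs as 9 genes chosen by name out of 56980 deposited genes. They comprise the ligand genes *Csf1*, *Il34*, *Csf2* and *Csf3* and the receptor genes *Csf1r*, *Csf2ra*, *Csf2rb*, *Csf3r* and *Il3ra*. The MSCs came from female mice ovariectomized (OVX) when 8 weeks old, which received antibiotics to deplete the gut microbiota, and then received fecal microbiota transplantation (FMT) for 8 weeks. Donors were sedentary OVX mice for the TranspCtrl group (3 samples) and exercised OVX mice for the TranspExer group (3 samples), so OVX and antibiotics were shared by both groups. The mouse strain and the number of animals behind a sample are not given in the sources used here, so p-values measure the spread between these samples, which may be technical. The cells were flushed marrow cultured for 7 days with washes, and no sorting step is described.

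Colony-stimulating factors are cytokines that drive the survival, proliferation and differentiation of myeloid cells. CSF1 and IL34 both bind the receptor tyrosine kinase CSF1R, on which macrophages and osteoclast precursors depend. CSF2 (GM-CSF) and IL3 bind receptors that each join a specific alpha chain (CSF2RA, IL3RA) to a shared beta chain (CSF2RB), and mice carry a close copy, CSF2RB2, that serves the IL3 receptor. CSF3 (G-CSF) acts through CSF3R and drives the production of neutrophils. In marrow, stromal cells are a known source of CSF1, and the receptors are found mainly on hematopoietic cells.

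Total counts per sample lay between 17647638 and 21319166. Levels are given as CPM, a count scaled to the size of its library with TMM factors. The floor of 3 counts was no more than 0.17 CPM in any sample and covers counting error only. TranspCtrl replicate 1 stood apart from its group. The mean chi-square per gene was 54.7 to 60.2 against the other TranspCtrl samples, compared with 3.81 between those samples and 4.52 to 7.99 among TranspExer samples. The cultures held RNA of several cell types. Markers of stromal cells (12 of 12 tested, *Col1a1* and *Col1a2* highest) summed to between 14151 and 22025 CPM in TranspCtrl and 13107 to 14389 CPM in TranspExer. These sums overlapped through TranspCtrl replicate 1 (14151 CPM), since the other TranspCtrl samples had 22025 and 21099 CPM, and 6 of the 12 were downregulated DEGs, beside 5.28% of all tested genes, and the median log2 fold change was -0.86. Of these DEGs, 1 passed the low-count filter only with its TranspCtrl samples, and without it 5 of 11 were downregulated and the median was -0.71. *Col1a1* and *Col1a2* had -0.16 and -0.61 (edgeR adjusted p = 0.674 and 0.0148), and -0.44 and -0.76 without TranspCtrl replicate 1. Macrophage markers (17 of 17 tested, *Lyz2* and *Cd68* highest) summed to 9351 to 14510 CPM and 7623 to 8306 CPM. In bulk RNA, fewer cells of a type and less RNA per cell cannot be told apart.

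Of the 9 genes, 8 passed the low-count filter and were tested among 15190 genes with edgeR's quasi-likelihood test and Benjamini-Hochberg adjustment. The receptor genes *Csf2ra*, *Csf3r* and *Il3ra* rose about 1.45 to 1.51 times in TranspExer, *Csf2* fell, and *Csf1*, *Csf1r*, *Csf2rb* and *Il34* did not pass the test. At an adjusted p under 0.05, 4 of the 8 genes were called, beside 32.2% of all tested genes: 3 were higher, beside 16.6%, and 1 was lower, beside 15.5%. With the added threshold of an absolute fold change of 2 that defines DEGs, 1 of the 8 was called (*Csf2*), beside 8.78% of all tested genes. None was an upregulated DEG, beside 3.5% of all tested genes, and 1 was a downregulated DEG, beside 5.28%. For 5 of the 8 genes no TranspExer sample fell within the TranspCtrl range or the reverse, beside 52.3% of all tested genes. Of these, 3 were higher and 2 lower, beside 27.2% and 25.1%, so these counts as such are not a result about the family. *Csf2* passed the filter only through its TranspCtrl samples, and its count in these totals is fixed in part by that. The median log2 fold change of the 8 genes was 0.03 and that of all tested genes -0.02.

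**Figure D1:**
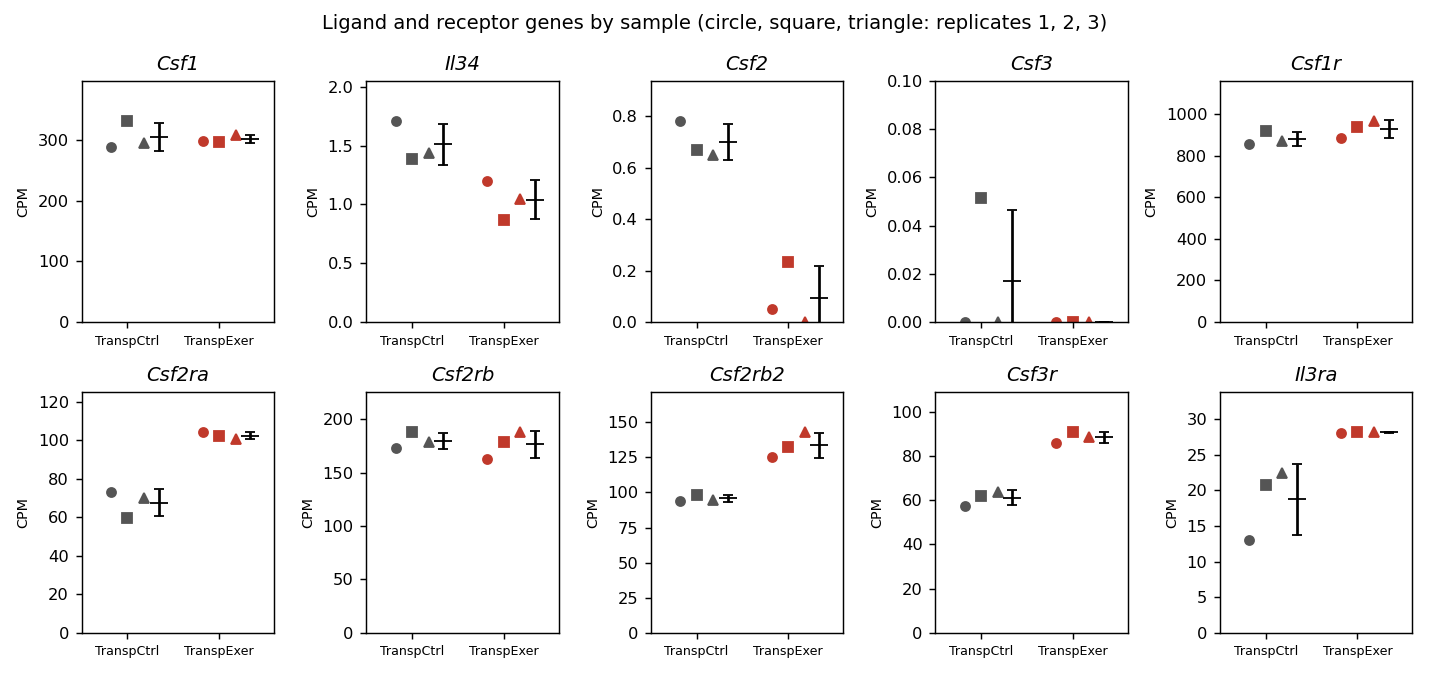
CPM (vertical axis, from 0) of the 9 genes and of the copy *Csf2rb2* in each TranspCtrl (grey) and TranspExer (red) sample, with replicates 1, 2 and 3 as circle, square and triangle and the mean ± SD in black. All TranspExer points of *Csf2ra*, *Csf2rb2*, *Csf3r* and *Il3ra* lie above all TranspCtrl points, those of *Csf2* and *Il34* lie below, and the points of *Csf1*, *Csf1r* and *Csf2rb* overlap.

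The promoters of the 4 receptor genes that rose, counting the copy *Csf2rb2*, are shown because these genes moved in the same direction. The sequences are RefSeq windows of GRCm38.p6 from 250 bases before to 50 after the transcription start, read 5′ to 3′ on the gene's strand. Capitals mark the letters GAGGAA or their reverse complement TTCCTC, the core of the PU box that the myeloid factor PU.1 binds. These letters were chosen with the sequences in view. The windows lie at chr19:61228369-61228668 (minus strand) for *Csf2ra*, chr4:126024409-126024708 (plus strand) for *Csf3r*, chr14:14346245-14346544 (plus strand) for *Il3ra* and chr15:78305672-78305971 (minus strand) for *Csf2rb2*.
Csf2ra: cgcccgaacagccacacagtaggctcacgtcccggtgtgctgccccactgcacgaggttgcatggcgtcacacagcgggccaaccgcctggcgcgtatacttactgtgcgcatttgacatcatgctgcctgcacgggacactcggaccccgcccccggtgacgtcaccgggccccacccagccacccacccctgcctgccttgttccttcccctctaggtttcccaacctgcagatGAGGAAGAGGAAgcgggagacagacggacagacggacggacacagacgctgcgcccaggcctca
Csf3r: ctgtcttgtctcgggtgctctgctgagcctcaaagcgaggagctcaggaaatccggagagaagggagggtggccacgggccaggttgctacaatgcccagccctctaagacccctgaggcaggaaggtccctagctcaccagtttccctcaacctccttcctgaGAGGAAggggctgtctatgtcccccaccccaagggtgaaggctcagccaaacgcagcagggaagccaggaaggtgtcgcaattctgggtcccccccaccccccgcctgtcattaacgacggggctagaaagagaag
Il3ra: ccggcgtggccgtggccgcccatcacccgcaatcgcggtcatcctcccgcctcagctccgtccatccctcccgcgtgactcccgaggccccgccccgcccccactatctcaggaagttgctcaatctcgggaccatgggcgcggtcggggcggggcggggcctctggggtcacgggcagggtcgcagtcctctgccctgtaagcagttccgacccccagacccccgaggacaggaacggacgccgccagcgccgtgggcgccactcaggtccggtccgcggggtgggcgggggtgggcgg
Csf2rb2: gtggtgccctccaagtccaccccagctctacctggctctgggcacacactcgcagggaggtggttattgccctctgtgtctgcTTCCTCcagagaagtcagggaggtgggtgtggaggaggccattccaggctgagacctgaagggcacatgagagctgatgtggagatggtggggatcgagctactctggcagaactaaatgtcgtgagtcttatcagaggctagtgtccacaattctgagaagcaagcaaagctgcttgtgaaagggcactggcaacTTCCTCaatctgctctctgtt
The letters occurred 2 times in the windows of *Csf2ra* and of *Csf2rb2*, 1 time in that of *Csf3r* and 0 times in that of *Il3ra*. Of all 32851 RefSeq promoter windows, 28.3% held them on either strand. The windows of *Csf1* and *Csf2*, which did not rise, held them 0 times. Of the receptor genes that did not pass the test, *Csf2rb* had no window available, and *Csf1r* was left out of the count by gene. A match describes the letters only.

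*Csf1r* and *Csf1* carried the highest levels of the family, and neither they nor *Il34* gave a call between groups. *Csf1* (ENSMUSG00000014599, GRCm38 chr3:107741048-107760469), the ligand of macrophage growth, had 288, 331 and 295 CPM in TranspCtrl replicates 1, 2 and 3 and 298, 297 and 309 CPM in TranspExer replicates 1, 2 and 3. The groups overlapped, and the TranspCtrl samples spanned the whole range of the TranspExer samples. The means were 305 ± 23.2 CPM (SD, n = 3) and 301 ± 6.50 CPM (SD, n = 3), with a log2 fold change of -0.02 (edgeR adjusted p = 0.9, SE 0.08). Its 95% interval of -0.21 to 0.18 did not reach a fold change of 2 on either side. The part of the lower stromal markers in this level was not tested.

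*Csf1r* (ENSMUSG00000024621, GRCm38 chr18:61100598-61132149) had 855, 918 and 868 CPM in TranspCtrl and 882, 935 and 965 CPM in TranspExer. The groups overlapped here too. The log2 fold change was 0.07 (edgeR adjusted p = 0.511, SE 0.08, 95% interval -0.12 to 0.26), and its sign turned when TMM factors were left out. *Csf1r* overlaps *Hmgxb3*, on the opposite strand, over 873 bases. That gene had 463 to 585 counts per sample, against at least 16101 for *Csf1r*. Per 100 counts of *Csf1r* in the same library, there were 34.6 ± 1.32 counts of *Csf1* in TranspCtrl and 32.5 ± 1.09 in TranspExer (SD, n = 3 each). This ratio of ligand to receptor, which needs no scaling between libraries, also overlapped (exact permutation test, two-sided p = 0.2, where the smallest p possible is 0.1).

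*Il34* (ENSMUSG00000031750, GRCm38 chr8:110741829-110805924), the other ligand of CSF1R, was far lower. It had 35, 27 and 31 counts in TranspCtrl and 23, 15 and 21 counts in TranspExer, equal to 1.71, 1.38 and 1.44 CPM against 1.202, 0.871 and 1.04 CPM. Every TranspExer sample was below every TranspCtrl sample. The log2 fold change of -0.53 (standard error 0.25, 95% interval -1.10 to 0.03) did not pass the test (edgeR adjusted p = 0.132). The interval held both a fold change of 2 and no change. The antisense genes *Gm15894* and *Gm15895*, which overlap *Il34* on the opposite strand, had at most 1 count in any sample. Other genes of this axis are named after their values were seen. *Ptprz1*, which encodes another receptor described for IL34, had 1.67 ± 0.473 CPM in TranspCtrl and 3.08 ± 0.232 CPM in TranspExer (SD, n = 3 each; log2 fold change 0.88, adjusted p = 0.0249 from edgeR). *Sdc1*, a proteoglycan described to bind IL34, and *Adam17*, the protease that sheds CSF1 from cells, gave log2 fold changes, in this order, of 0.14 and 0.11 (edgeR adjusted p = 0.485 and 0.327).

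Markers of the cells that depend on CSF1R moved unevenly beside the level of *Csf1r*. The marker counts stand beside the shares of all tested genes, which were 3.5% upregulated and 5.28% downregulated DEGs and, at an adjusted p under 0.05, 16.6% higher and 15.5% lower. Of 17 tested macrophage markers, 6 were higher and 2 lower at an adjusted p under 0.05 from edgeR, 1 was a downregulated DEG (*Lyz2*), and the median log2 fold change was 0.10. The summed level and the median had opposite signs. *Lyz2* and *Cd68*, the highest markers, moved in opposite directions, by -1.14 and 0.78 on the log2 scale (edgeR adjusted p = 0.00873 and 0.000377). *Lyz2* was highest in TranspCtrl replicate 1, and without that sample its log2 fold change was -0.80, which is no DEG. The list then had 10 markers higher, 2 lower and 0 DEGs, beside 22.1% higher and 19.6% lower of all genes tested without that sample, and a median log2 fold change of 0.27. Of 10 tested osteoclast markers, 6 were downregulated and 2 upregulated DEGs, with a median log2 fold change of -1.78. Without 2 of the downregulated genes, which passed the low-count filter only with their TranspCtrl samples, 4 were downregulated and the median was -0.996. The list had a summed level of 980 to 1045 CPM in TranspCtrl and 701 to 727 CPM in TranspExer. *Mmp9* and *Acp5*, the highest of them by the mean over all samples, gave log2 fold changes, in this order, of -2.42 and -1.29 (edgeR adjusted p = 6.5e-05 and 0.000283). The 2 upregulated DEGs, named after their values were seen, were *Atp6v0d2* and *Itgb3*, at 1.02 and 1.09 (edgeR adjusted p = 0.000136 and 0.000344). In TranspExer these were the highest markers of the list, with means of 209 and 202 CPM. Of 5 monocyte markers, 3 were higher and 2 lower at an adjusted p under 0.05, with *Chil3* and *F13a1* the highest, and their sum was 1675 to 1723 CPM and 1709 to 1773 CPM. The part of these cells in the level of *Csf1r* was not tested.

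*Csf2* (ENSMUSG00000018916, GRCm38 chr11:54247271-54249667), the gene of GM-CSF, was near the limit of detection and lower in TranspExer. It had 16, 13 and 14 counts in TranspCtrl replicates 1, 2 and 3 and 1, 4 and 0 counts in TranspExer replicates 1, 2 and 3. The groups did not overlap, and 2 of the 3 TranspExer samples lay under the floor of 3 counts. The corresponding levels were 0.699 ± 0.0708 CPM (SD, n = 3) and 0.0948 ± 0.122 CPM (SD, n = 3). *Csf2* passed the low-count filter through TranspCtrl alone, so a tested gene of this kind had to differ, and a filter on a mean of at least 10 counts removed it. The counts are therefore the description to read, and the fit is given beside them. The fitted log2 fold change was -2.89 (edgeR adjusted p = 0.0145, SE 0.67). Summed over samples and scaled for depth, 43 counts in TranspCtrl against 5 in TranspExer gave a level 7.90 times higher in TranspCtrl, with an exact 95% interval of 3.13 to 25.5 for counting error only. Without TranspExer replicate 1 the log2 fold change was -2.63 (adjusted p = 0.0671), and without TranspExer replicate 2 it was -4.48 (adjusted p = 0.0118), both from edgeR. The antisense gene *Gm12223*, which overlaps *Csf2* on the opposite strand, had 0 counts in all samples.

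*Il3*, the neighbor of *Csf2* in function and the ligand of IL3RA, was counted 7, 1 and 8 times in TranspCtrl and 0 times in every TranspExer sample, and did not pass the low-count filter. *Il5*, whose receptor uses the same beta chain, had at most 3 counts in a sample. T and NK cells are known sources of these cytokines. Of 7 tested T and NK cell markers, 1 was a downregulated and 1 an upregulated DEG, beside 5.28% and 3.5% of all tested genes. The highest markers, *Cd4* and *Nkg7*, rose by 0.35 and 1.36 on the log2 scale (edgeR adjusted p = 0.0111 and 0.000238). These 2 genes made up most of the summed level of the list, in which 3 log2 fold changes were positive and 4 negative. The downregulated DEG was *Cd3d*, named after its values were seen, with 31, 22 and 25 counts in TranspCtrl against 2, 6 and 12. Like *Csf2*, it passed the low-count filter only with its TranspCtrl samples, so its call supports nothing. The median log2 fold change of the list was -0.09, or 0.16 without the 2 genes that passed the filter in this way, while its summed level was 56.5 to 58.9 CPM in TranspCtrl and 76.4 to 82.2 CPM in TranspExer, and its part in the level of *Csf2* was not tested. *Csf3* (ENSMUSG00000038067, GRCm38 chr11:98701263-98703629), the gene of G-CSF, had 1 count in TranspCtrl replicate 2 and 0 counts in the other samples, so no difference was detectable at this depth.

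On the receptor side, the alpha chain genes *Csf2ra* and *Il3ra* rose, and the shared beta chain gene did not pass the test. *Csf2ra* (ENSMUSG00000059326, GRCm38 chr19:61223957-61228429), the GM-CSF binding chain, had 73.3, 59.7 and 69.9 CPM in TranspCtrl and 104, 102 and 101 CPM in TranspExer. The TranspExer samples lay close together and above all TranspCtrl samples. The means were 67.7 ± 7.07 CPM (SD, n = 3) and 102 ± 1.79 CPM (SD, n = 3), which gave a log2 fold change of 0.60 (edgeR adjusted p = 0.00243, SE 0.09). With each sample left out in turn it stayed between 0.52 and 0.66.

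*Il3ra* (ENSMUSG00000068758, GRCm38 chr14:14346275-14356011), the IL3 binding chain, had 13.02, 20.8 and 22.4 CPM in TranspCtrl and 28.1, 28.2 and 28.1 CPM in TranspExer. TranspCtrl replicate 1 was the lowest sample, and the groups did not overlap. The log2 fold change was 0.59 (edgeR adjusted p = 0.0416, SE 0.18). Without TranspCtrl replicate 1 it was 0.38 (adjusted p = 0.00156). The call was lost without TranspCtrl replicate 2 (adjusted p = 0.05001) and without TranspExer replicates 1, 2 or 3 (adjusted p = 0.107, 0.110 and 0.116), all from edgeR. The log2 fold changes in these settings, in this order, were 0.67, 0.58, 0.58 and 0.58. The antisense gene *Gm48860*, which overlaps *Il3ra*, had 0 counts in all samples.

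*Csf2rb* (ENSMUSG00000071713, GRCm38 chr15:78325752-78353847), the beta chain shared by the receptors of GM-CSF, IL3 and IL5, had 173, 188 and 178 CPM in TranspCtrl and 163, 179 and 188 CPM in TranspExer. These ranges overlapped, and the log2 fold change was -0.03 (edgeR adjusted p = 0.814, SE 0.08, 95% interval -0.22 to 0.16). Its copy *Csf2rb2* (ENSMUSG00000071714, GRCm38 chr15:78282507-78305721, on the opposite strand) had 94.2, 98.3 and 94.7 CPM in TranspCtrl and 125, 132 and 143 CPM in TranspExer. The copy rose in every TranspExer sample, with a log2 fold change of 0.48 (edgeR adjusted p = 0.00341, SE 0.08), and stayed between 0.39 and 0.52 under all alternatives tried. The copy took 34.7% ± 0.440 of the counts of both genes in TranspCtrl and 43.1% ± 0.445 in TranspExer (SD, n = 3 each). The difference in this share was larger than the spread of replicates, and its exact two-sided permutation p of 0.1 is the smallest that 3 against 3 samples allow.

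The counts of these copies are uncertain. In GENCODE M21 transcripts, 18.4% of the 50-base windows and 3.47% of the 150-base windows of the longest *Csf2rb* transcript occur unchanged in *Csf2rb2*. The deposited values of *Csf2rb* and *Csf2rb2* were not whole numbers in any of the 6 samples, whereas their sum was whole, within 0.005, in 5 of 6, so reads had been divided between the copies. With both genes summed, the level was 276 ± 9.72 CPM in TranspCtrl and 310.0 ± 21.6 CPM in TranspExer (SD, n = 3 each), and the log2 fold change was 0.17 (edgeR adjusted p = 0.156, SE 0.08, 95% interval -0.02 to 0.36). The values of *Csf1*, *Il34*, *Csf2*, *Csf2ra* and *Il3ra* were whole in all 6 samples, and those of *Csf1r* and *Csf3r* in 1 and 2 of 6.

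Set against *Csf2rb* in the same library, *Csf2ra* had 42.3, 31.8 and 39.2 counts per 100 in TranspCtrl and 64.1, 57.2 and 53.7 in TranspExer. The groups did not overlap for this ratio, which needs no scaling between libraries (means 37.8 ± 5.42 and 58.3 ± 5.28, SD, n = 3 each, exact two-sided permutation p = 0.1, the smallest possible). Per 100 counts of *Csf1r*, *Csf2rb* had 20.3, 20.5 and 20.5 counts in TranspCtrl, against 18.5, 19.1 and 19.5 in TranspExer, without overlap. With the counts of both copies added the direction turned, to 31.3, 31.2 and 31.4 in TranspCtrl against 32.6, 33.3 and 34.3 in TranspExer. The direction thus depends on whether the copy is counted, and the part of divided reads was not tested. *Il3ra* per 100 counts of *Csf2ra* was 28.2 ± 9.15 and 27.5 ± 0.524 (SD, n = 3 each), and these ranges overlapped. The alpha chain of the IL5 receptor moved the other way. *Il5ra*, which uses the same beta chain, had 13.8, 12.4 and 14.6 CPM in TranspCtrl and 3.29, 3.66 and 3.42 CPM in TranspExer. Its log2 fold change was -1.98 (edgeR adjusted p = 6.19e-05, SE 0.13), and it was a downregulated DEG.

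*Csf3r* (ENSMUSG00000028859, GRCm38 chr4:126024550-126044440), the G-CSF receptor of the neutrophil lineage, had 57.5, 62.0 and 63.8 CPM in TranspCtrl and 85.9, 90.8 and 88.7 CPM in TranspExer. All TranspExer samples were higher than all TranspCtrl samples. The means were 61.1 ± 3.23 CPM (SD, n = 3) and 88.5 ± 2.45 CPM (SD, n = 3), which gave a log2 fold change of 0.53 (edgeR adjusted p = 0.00161, SE 0.07). Leaving out single samples gave 0.49 to 0.56. Per 100 counts of *Csf1r* in the same library, *Csf3r* had 6.73, 6.75 and 7.35 counts in TranspCtrl, against 9.74, 9.71 and 9.19 in TranspExer, which did not overlap (exact two-sided permutation p = 0.1, the smallest possible).

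**Figure D2:**
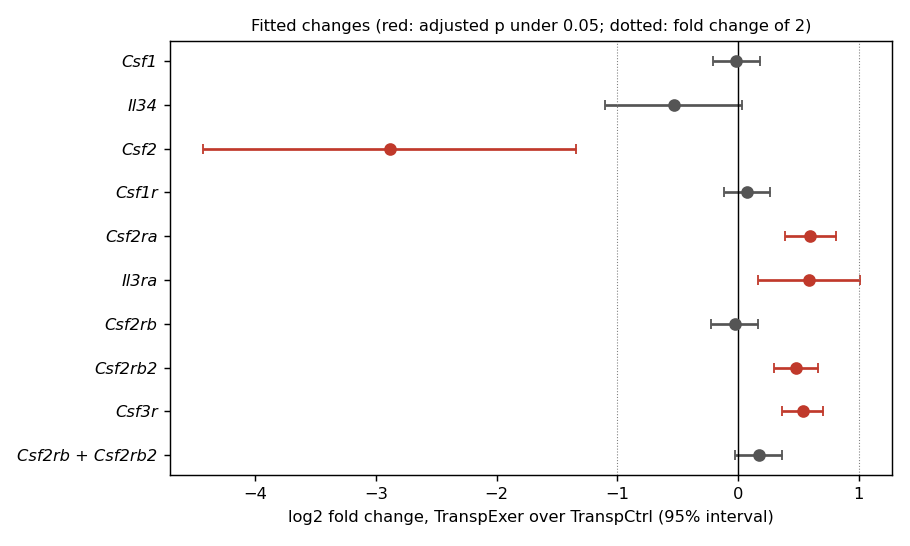
Log2 fold change of TranspExer over TranspCtrl (horizontal axis) with its 95% interval from edgeR for the 8 tested genes, the copy *Csf2rb2* and the sum of both beta chain genes. *Csf2ra*, *Il3ra*, *Csf2rb2* and *Csf3r* lie between 0.48 and 0.60, *Csf2* lies at -2.89 with the widest interval, and the intervals of the other 5 entries include 0.

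Marker lists of the cells that can carry these receptors moved unevenly. Their counts stand beside the shares of all tested genes, of which 3.5% were upregulated and 5.28% downregulated DEGs. At an adjusted p under 0.05, 16.6% were higher and 15.5% lower. Of 6 granulocyte progenitor markers, 5 were upregulated DEGs, and their sum rose from 373 to 512 CPM in TranspCtrl to 2014 to 2131 CPM in TranspExer, with *Mpo* and *Elane* the highest (log2 fold change 2.47 and 2.16). Of 12 mature neutrophil markers, none was a DEG, 2 were higher and 2 lower at an adjusted p under 0.05 from edgeR, and the sums of 3267 to 4457 CPM and 4269 to 4603 CPM overlapped. Without TranspCtrl replicate 1, 5 were higher and 3 lower, beside 22.1% and 19.6% of all genes tested without it, the median log2 fold change moved from 0.000071 to 0.23, and the remaining TranspCtrl sums of 3267 and 3665 CPM lay below all TranspExer sums. *Ngp* and *S100a9*, the highest of these, gave log2 fold changes, in this order, of 0.53 and -0.07 (adjusted p = 0.00386 and 0.841). Of 9 eosinophil, basophil and mast cell markers, 5 were upregulated DEGs, of which 1 passed the low-count filter only with its TranspExer samples, and the sum was 53.1 to 65.7 CPM against 154 to 166 CPM, with *Prg2* and *Ccr3* the highest (log2 fold change 2.74 and 1.15). Of 7 dendritic cell markers, 5 were tested and 1 was an upregulated DEG, with sums of 76.6 to 89.2 CPM and 126 to 135 CPM and *Itgax* and *Zbtb46* the highest (log2 fold change 0.75 and 0.35, edgeR adjusted p = 0.000745 and 0.125). Most of these sums was *Itgax* alone, with means of 71.0 CPM in TranspCtrl and 120 CPM in TranspExer. Log2 fold changes were positive for 3 and negative for 2 of the 5. Of 7 tested B and plasma cell markers, 6 were downregulated DEGs, with sums of 1524 to 1921 CPM and 360 to 392.5 CPM and *Jchain* and *Mzb1* the highest (log2 fold change -2.29 and -3.57). All 8 endothelial markers were higher at an adjusted p under 0.05 from edgeR, with sums of 199 to 250 CPM and 649 to 711 CPM and *Cdh5* and *Pecam1* the highest (log2 fold change 2.02 and 0.87). The part of these cells in the levels of *Csf2ra*, *Csf3r*, *Il3ra*, *Csf2* and *Il5ra* was not tested. No list was empty, and every defining marker in these lists had more than 3 counts in at least 1 sample.

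Per kilobase of the deposited gene length, the level of *Csf1r* was the highest in both groups, at 228 ± 8.54 and 239.6 ± 10.8 CPM per kb (SD, n = 3), followed by *Csf1* at 145 ± 11.1 and 144 ± 3.10 CPM per kb. In TranspCtrl, *Csf2rb* (37.8 ± 1.58) and *Csf2ra* (36.6 ± 3.82) came next and overlapped. In TranspExer, the level of *Csf2ra* was 55.4 ± 0.970 CPM per kb and lay above that of *Csf2rb*, at 37.0 ± 2.64, without overlap. With the levels of *Csf2rb* and *Csf2rb2* added, the sum was 57.9 ± 2.04 CPM per kb in TranspCtrl and 65.2 ± 4.53 in TranspExer (SD, n = 3 each). These sums lay above *Csf2ra* in both groups without overlap. The order thus depends on whether the copy is counted, and the part of reads divided between the copies was not tested. *Csf2rb2* and *Csf3r* followed and overlapped each other in both groups, at 20.2 and 19.3 CPM per kb in TranspCtrl and 28.2 and 27.99 in TranspExer. *Il3ra* was below these, at 8.09 ± 2.17 and 12.2 ± 0.0333 CPM per kb. *Il34* and *Csf2* overlapped in TranspCtrl (0.884 and 0.874 CPM per kb) and did not in TranspExer (0.608 and 0.119).

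**Figure D3:**
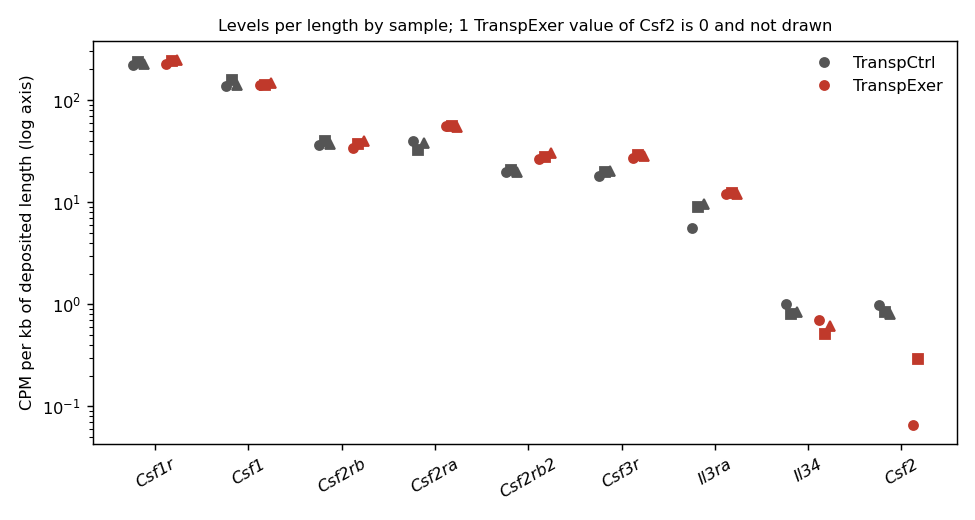
CPM per kilobase of deposited gene length (log axis) for each gene and sample, TranspCtrl in grey and TranspExer in red, with replicates 1, 2 and 3 as circle, square and triangle. *Csf1r* and *Csf1* lie above 100, *Csf2ra* lies above *Csf2rb* in every TranspExer sample, though below the sum of both beta chain copies, and *Il34* and *Csf2* lie below 1. *Csf3* and the TranspExer sample with 0 counts of *Csf2* are not drawn.

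**Figure D4:**
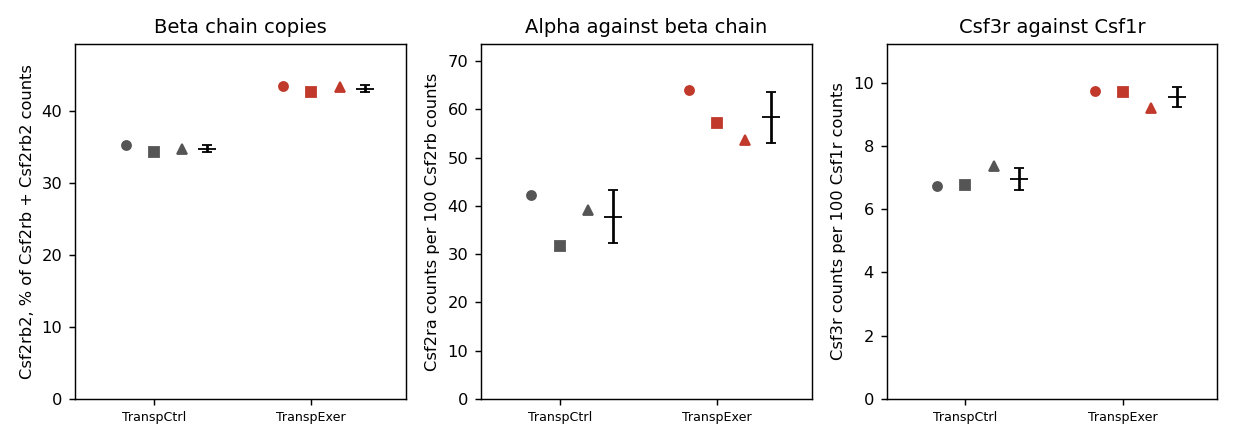
Ratios within each library, from 0 on the vertical axes: *Csf2rb2* as a percentage of the counts of both beta chain genes, *Csf2ra* counts per 100 *Csf2rb* counts, and *Csf3r* counts per 100 *Csf1r* counts. Points are samples, with the mean ± SD in black, and the TranspExer samples lie above all TranspCtrl samples in each panel.

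Beyond the receptors, 38 of 38 listed genes of their signalling were tested, and 15 were higher and 3 lower at an adjusted p under 0.05 from edgeR, beside 16.6% and 15.5% of all tested genes. The list had 1 DEG (2.63% of its tested genes, beside 8.78% of all), and its median log2 fold change was 0.24. Without TranspCtrl replicate 1, 20 were higher and 6 lower, beside 22.1% and 19.6% of all genes tested without it. *Socs3*, a feedback inhibitor that binds the G-CSF receptor, fell from 79.3 ± 4.61 to 38.7 ± 2.27 CPM (SD, n = 3 each), a log2 fold change of -1.03 (edgeR adjusted p = 0.000131, SE 0.08). The list had 0 DEGs without TranspCtrl replicate 2 and without TranspExer replicate 2. The other lower genes, named after their values were seen, were *Cish*, a target of STAT5, and *Jak2*, the kinase that the beta chain carries, with log2 fold changes, in this order, of -0.72 and -0.38 (edgeR adjusted p = 0.0252 and 0.0107).

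Of 20 tested myeloid transcription factor genes, 5 were upregulated DEGs and 1 a downregulated DEG, which is 30% beside 8.78% of all tested genes, and the median log2 fold change was 0.64. *Myb*, *Gfi1*, *Gata2* and *Gata1*, factors of hematopoietic progenitors and of the granulocyte, mast cell and erythroid lineages, gave, in this order, log2 values of 1.66, 1.10, 1.42 and 1.18 (edgeR adjusted p = 5.25e-05, 0.000488, 0.000866 and 0.00143). *Irf4*, which plasma cells and some macrophages express, fell by 2.30 on the log2 scale (edgeR adjusted p = 9.98e-06). *Spi1*, the gene of PU.1, and *Cebpa*, both known to drive CSF receptor genes and named after their values were seen, rose without being DEGs, with log2 fold changes, in this order, of 0.50 and 0.80 (edgeR adjusted p = 0.00913 and 0.013). *Cebpa* was lowest in TranspCtrl replicate 1, at 60.3 CPM against 101 and 100.4 CPM in the other TranspCtrl samples, and without that sample its log2 fold change was 0.59. Without it the myeloid factors had 4 upregulated DEGs.

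Of 21 listed genes of other hematopoietic cytokines and receptors, 17 were tested, and 4 were upregulated and 1 a downregulated DEG (29.4%, beside 8.78% of all tested genes), with a median log2 fold change of 0.12, or 0.07 without TranspCtrl replicate 1. *Kit*, the stem cell factor receptor, had 16.3, 16.0 and 14.7 CPM in TranspCtrl and 52.4, 50.7 and 53.4 CPM in TranspExer, a log2 fold change of 1.74 (edgeR adjusted p = 2.35e-05). *Il7r* and *Epor*, the receptor genes for IL7 and erythropoietin, were higher by 2.09 and 1.34 on the log2 scale (edgeR adjusted p = 9.98e-06 and 0.00492). The downregulated DEG was *Il5ra*. *Epo* had 0 counts, and *Thpo* had at most 5 counts in a sample.

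**Figure D5:**
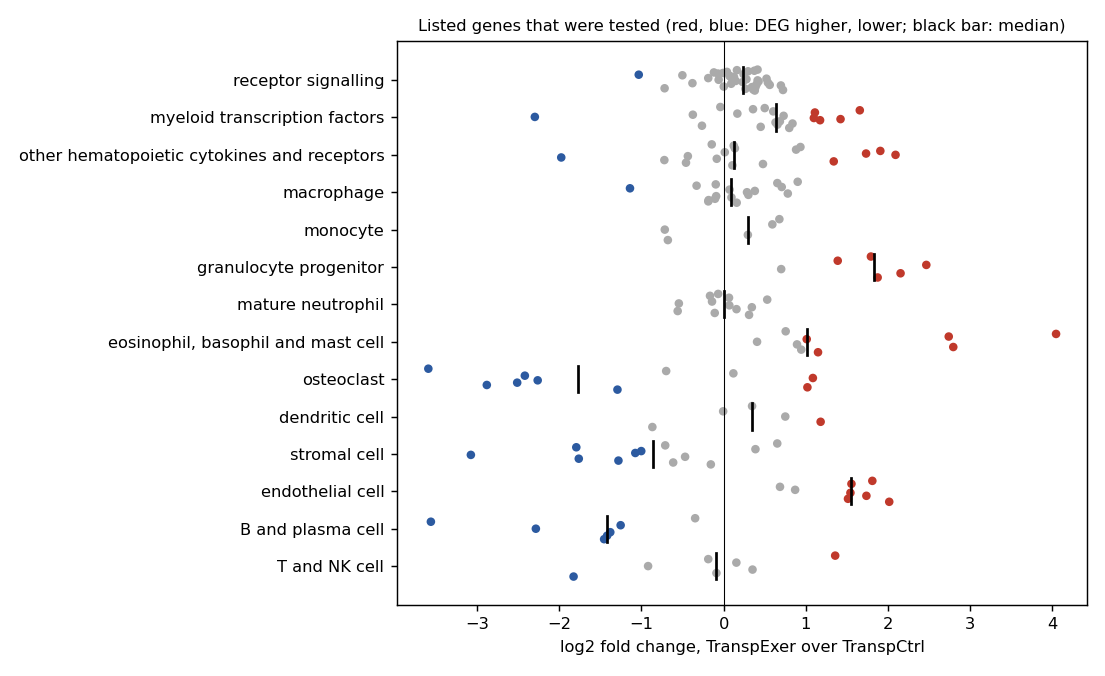
Log2 fold change (horizontal axis, TranspExer over TranspCtrl) of each tested gene of the 3 pathway lists and 11 marker lists, with upregulated DEGs in red, downregulated DEGs in blue, other genes in grey and the list median as a black bar. Granulocyte progenitor, eosinophil, basophil and mast cell, and endothelial genes lie to the right, B and plasma cell and most osteoclast genes to the left, and receptor signalling genes around a median of 0.24, with *Socs3* the lowest at -1.03.

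Among 9667 other genes with at least 10 CPM, those most like each of the 6 members that also had at least 10 CPM were found by Pearson's r of log2 CPM over the 6 samples, given as a description because samples share group and library. *Csf3r* was closest to *Pik3cb*, *Egr2* and *Mgll* (r = 0.999, 0.999 and 0.999). *Csf2ra* was closest to *Lpxn*, *Phf23* and *Rnh1* (r = 0.998, 0.997 and 0.996), and *Il3ra* to *Cd74*, *Rbpms2* and *mt-Nd2* (r = 0.999 for each). *Csf1r* was closest to *Exoc7*, *Rnf150* and *Tmem63b* (r = 0.989, 0.985 and 0.984). *Csf1* was closest to *Cast*, *Gpr107* and *Zfp111* (r = 0.976, 0.973 and 0.966), and *Csf2rb* to *Zfp609*, *Anapc1* and *Rab3gap2* (r = 0.992, 0.990 and 0.971).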

How the data were processed

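RNA-Seq of BM MSCs was analysed in 3 TranspCtrl and 3 TranspExer samples, grouped by the sample labels. The authors deposited 1 table of expected counts, which carry no normalization, beside a length for each gene, and the submitters' processing notes name the build mm10. The aligner, the counting tool and its strand setting are not given in the sources used here. The library kit is given as TruSeq in the methods and as a stranded mRNA preparation in the labels. Expected counts were rounded and tested with edgeR 4.0.16 (filterByExpr, TMM, quasi-likelihood test, Benjamini-Hochberg) on 15190 genes under R 4.3.3. Genes called DEGs passed both an adjusted p-value of 0.05 and a fold change of 2 in either direction. SE was computed as the log2 fold change over the root of F. Gene positions came from GENCODE M21, in which 52125 identifiers were found and 4855 were not.

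By rule, the genes named were the members, *Csf2rb2*, up to 4 DEGs per direction of each pathway list, the 2 highest markers of each list, and the 3 genes most like each member of at least 10 CPM. Outside this rule and with their values seen, *Il3*, *Il5*, *Epo*, *Thpo*, *Ptprz1*, *Sdc1*, *Adam17*, *Cish*, *Jak2*, *Spi1*, *Cebpa*, *Cd3d*, *Atp6v0d2*, *Itgb3* and the genes that overlap members were also named. Members and lists were chosen with earlier results of these data known, and ratios to *Csf1r* or *Csf2rb*, the added beta chain levels and list values without TranspCtrl replicate 1 or without genes that passed the filter through 1 group after the values were seen. Alternatives were DESeq2 1.42.0, other scalings and filters, the replicate number as a block, and each sample left out. The fit was tested on simulated data. Some genes of the pathway lists are not reported here.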

Additional observations from a re-analysis of the deposited data

How the results depend on the processing

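*Csf2ra*, *Csf3r* and *Csf2rb2* kept their direction and stayed past the threshold under DESeq2, other scalings and filters, the replicate block and every sample left out. All tested genes gave 1333 DEGs, 1114 to 1431 with a sample left out, and the median log2 fold change of all genes was -0.10 with no factors beyond library size. The family had 0 DEGs with a filter on a mean of at least 10 counts, which removed *Csf2*, and 0 to 1 with a sample left out. *Csf1r* turned to -0.0043 with upper-quartile factors and -0.012 with library size only, and had 0.032 to 0.11 with a sample left out. *Csf1* ranged from -0.055 to 0.051, *Csf2rb* from -0.087 to 0.020, *Il34* from -0.66 to -0.44, *Csf2* from -4.48 to -2.30 and *Il3ra* from 0.38 to 0.74 with a sample left out. *Csf2rb* was 0.17 when summed with its copy. Signalling genes had 0 to 1 DEGs with a sample left out (0 without TranspCtrl replicate 2 or TranspExer replicate 2). Samples of equal number did not deviate together (correlations of -0.0017 to 0.042), so the numbers were not taken as pairs. With the replicate block there were 1286 DEGs, and *Il3ra* had 0.62 (edgeR adjusted p = 0.0286). The block changed no call of a family member. The causes of the turned signs were not tested. Depth limits *Csf2*, *Csf3*, *Il3* and *Il34*.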
